A study of Drosophila melanogaster with 3 samples.

Results

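On Drosophila autosomal arms (2L, 2R, 3L and 3R), 727 Pita peaks overlapped a ZIPIC peak with middles no more than 100 bp apart. These centred pairs made up 727 of the 2768 Pita peaks in the deposited list and drew on 725 of the 3047 ZIPIC peaks. They were chosen by the ends of the called intervals. Each autosomal Pita peak was matched to the ZIPIC peak that shared the most bases with it, at least 1 bp, and the pair was kept where the middles of the intervals lay within 100 bp. The remaining 351 of 1078 overlapping autosomal pairs had middles farther apart and are called offset pairs here. A further 1167 autosomal Pita peaks overlapped no ZIPIC peak, and 1058 autosomal ZIPIC peaks overlapped no Pita peak.

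Insulator proteins are DNA-binding factors that mark boundaries between chromatin domains, and in Drosophila many of them work with CP190, a cofactor that is recruited by DNA-bound partners. Pita and ZIPIC (the product of CG7928) are partners of this kind. Each carries an N-terminal zinc-finger-associated domain, through which such proteins can associate with one another, and an array of C2H2 zinc fingers, which read DNA sequence.

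Chromatin of untreated S2 cells, an embryonic Drosophila cell line, was cross-linked with formaldehyde, sheared and precipitated with an antibody against Pita or one against ZIPIC. Each precipitate was sequenced as 1 library, and 1 library of input DNA, made without antibody, served as control for both. Material precipitated with the same antibody could be pooled to reach enough DNA. The cells were not depleted of either protein, so the comparisons below are between classes of peaks within a list. No value has a replicate, and the lists give no read counts, so it is not known how many reads lie behind any one peak. By the study's own read totals, whose values are not used here, the ZIPIC library held more unique reads than the Pita library and the input more than either. The lists hold for each peak its interval on the dm3 assembly (printed here with positions counted from 1), the caller's p-value over input and a false discovery rate. As a measure of strength the −log10 p of each peak was taken, which becomes larger with more reads as well as with more enrichment. Levels are therefore compared within a list, and between the lists only as percentiles, the share of a list's peaks that are no stronger. The lists extend to a p of 9.93e-05 for Pita and of 1.00e-04 for ZIPIC. The input library has no peak list of its own. Shares are followed by their exact (Clopper-Pearson) 95% binomial interval, which takes in counting error alone.

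Most of the pairs lay far closer together than the limit of 100 bp. The median distance between the middles of a Pita and a ZIPIC interval was 14.5 bp, with quartiles of 5.5 and 41.5 bp. In 176 pairs the middles were at most 5 bp apart, in 302 at most 10 bp and in 578 at most 50 bp. In 12 pairs they fell on the same position. The ZIPIC middle lay at the lower coordinate in 373 pairs and at the higher coordinate in 342 pairs. These distances describe the selection and were not tested. They formed a narrow peak around 0, and the offset pairs spread to both sides of it as far as 837.5 bp.

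**Figure D1:**
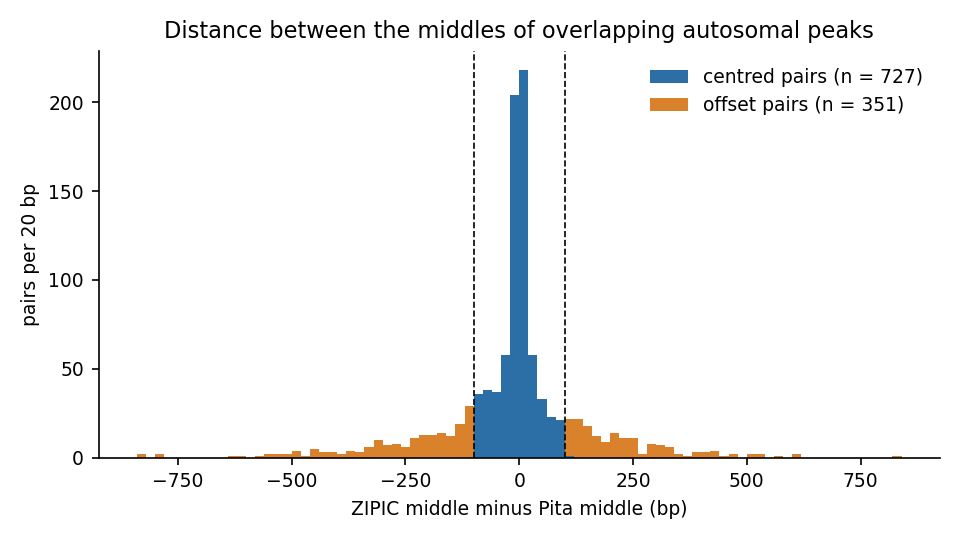
Histogram of the ZIPIC middle minus the Pita middle, in bp, for the 1078 overlapping autosomal pairs, counted in bins of 20 bp. Blue bars are the 727 centred pairs and orange bars the 351 offset pairs, with dashed lines at the limits of 100 bp; 302 centred pairs lie within 10 bp of 0.

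The last pairs inside the limit had middles 100 bp apart. They were the Pita peaks at chr2R:13624643-13624815, at chr2R:19634213-19634509 and at chr3R:26912133-26912500, with −log10 p of 18.9, 4.12 and 26.0 for Pita and of 26.8, 15.4 and 4.97 for ZIPIC. The first pairs outside it had middles 101.5 bp apart. These Pita peaks lay at chr3L:6987684-6988015, at chr3L:4975949-4976450 and at chr3R:23763419-23763711, with −log10 p of 36.2, 4.15 and 40.9 for Pita and of 18.7, 4.59 and 4.15 for ZIPIC.

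The intervals of the centred pairs matched in extent as well as in position. The median width was 269 bp for Pita and 289 bp for ZIPIC, and the ZIPIC interval was 1.04 times as wide as the Pita interval at the median, with quartiles of 0.906 and 1.23. In 580 pairs (79.8%) the widths were within a factor of 1.5 of one another, against 47 of the offset pairs (13.4%). The shared stretch had a median of 234 bp and covered a median of 82.5% of the bases held by either interval, against 36.4% in the offset pairs. Across the 727 centred pairs the widths had a Spearman rho of 0.79, and across the 351 offset pairs one of 0.12. The points share the input library and 1 library per protein, and the selection used the interval ends, so these values are a description.

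**Figure D2:**
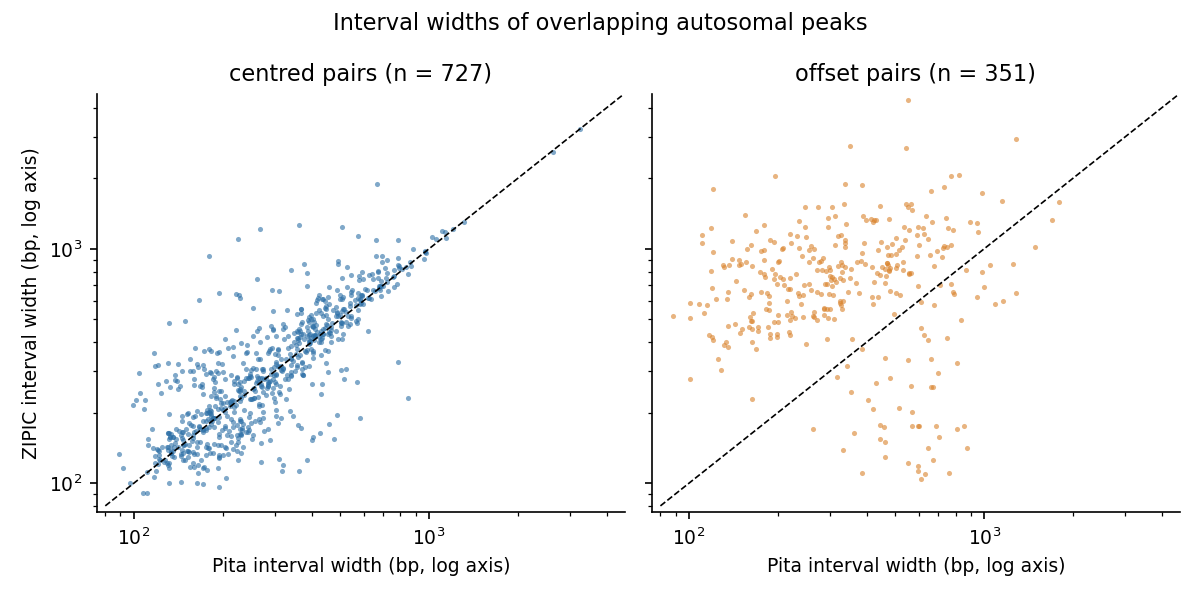
Width of the ZIPIC interval against width of the Pita interval in bp, on log axes, for the 727 centred pairs (left) and the 351 offset pairs (right), with a dashed line of equal width. Centred pairs follow the line, with a median width ratio of 1.04, whereas most offset pairs lie above it, with a median ratio of 2.31.

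The width of the ZIPIC interval separated the classes more than that of the Pita interval. ZIPIC intervals had a median of 289 bp in centred pairs, against 745 bp in offset pairs, 342 bp in ZIPIC peaks without Pita and 387 bp in the whole list. Pita intervals had a median of 269 bp in centred pairs, against 328 bp in offset pairs, 239 bp in Pita peaks without ZIPIC and 264 bp in the whole list. Where both intervals were under 500 bp, 551 of 605 overlapping pairs were centred (91.1%, interval 88.5 to 93.2). Where the ZIPIC interval was 500 bp or wider, 157 of 424 were (37.0%, interval 32.4 to 41.8). A limit of 100 bp is easier to meet for short intervals, and the part of width in the division between the classes was not tested.

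In 98 centred pairs both the starts and the ends of the intervals lay within 10 bp of each other. One pair, at chr2L:9699707-9699877, had the same 171 bp listed for both proteins, at a −log10 p of 13.0 for Pita and 20.1 for ZIPIC. The next closest were at chr3R:7648154-7648280, where the ends differed by 1 bp, at chr2L:6448472-6448619, at chr2L:13549601-13549711 and at chr3R:4878698-4879134. These 5 pairs were between 111 and 437 bp wide for Pita, and their strengths were moderate, with a −log10 p of 7.61 to 14.8 for the Pita peaks, while the ZIPIC peaks had 6.80 to 23.2. The 98 pairs with matching ends had a median Pita width of 186 bp. The other 629 pairs had one of 284 bp.

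Which interval enclosed the other went with which protein was stronger in its own list. In 274 pairs the Pita interval lay inside the ZIPIC interval. These pairs had a median −log10 p of 8.14 for Pita, below the 13.3 of the whole Pita list, and of 16.8 for ZIPIC, above the 7.49 of the whole ZIPIC list. The ZIPIC percentile was the higher one in 254 of them. In 196 pairs the ZIPIC interval lay inside the Pita interval, and the picture was the reverse, with a median of 42.4 for Pita and of 8.60 for ZIPIC and the Pita percentile higher in 147 of them. The 256 staggered pairs, where each interval reached past the other at one end, had medians of 15.4 for Pita and 12.1 for ZIPIC. When the pairs were divided into 4 equal classes by the Pita percentile minus the ZIPIC percentile, lowest to highest, the median width ratio of ZIPIC to Pita was lower in each next class, at 1.17, 1.08, 1.01 and 0.831. The interval of a peak and its p come from the same call, so these counts are not independent of one another.

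Centred pairs stood higher in the ZIPIC list than in the Pita list. Their median −log10 p for ZIPIC was 12.4, with quartiles of 7.09 and 21.4. It was 10.8 in offset pairs, 5.95 in ZIPIC peaks without Pita and 7.49 in the whole list. For Pita the median in centred pairs was 15.2, with quartiles of 6.77 and 37.8. It was 20.0 in offset pairs, 10.5 in Pita peaks without ZIPIC and 13.3 in the whole list. The median member thus stood at percentile 73.7 of the ZIPIC list and at percentile 53.8 of the Pita list. The ZIPIC percentile was the higher of the pair in 484 of 727 pairs (66.6%, interval 63.0 to 70.0). In the offset pairs it was the higher in 234 of 351 (66.7%, interval 61.5 to 71.6), nearly the same share.

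**Figure D3:**
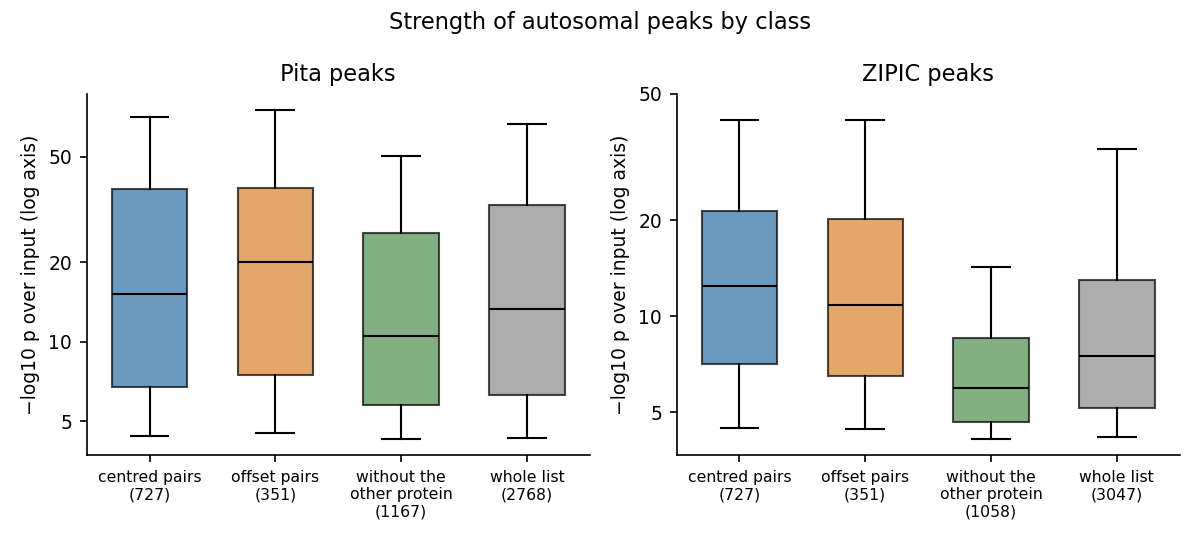
Strength as −log10 p over input, on log axes, for Pita peaks (left) and ZIPIC peaks (right) in centred pairs, offset pairs, peaks without the other protein and the whole list, with the number of values in parentheses. Boxes span the quartiles around the median and whiskers the 5th to 95th percentile; the ZIPIC medians are 12.4, 10.8, 5.95 and 7.49 from left to right, and the Pita medians 15.2, 20.0, 10.5 and 13.3.

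The deposited lists run past a p of 1e-05. For ZIPIC, centred and offset pairs alike held fewer of the weakest peaks than the list as a whole. For Pita, the centred pairs had nearly the list's own share. A p under 1e-05 was held by 653 of 727 ZIPIC peaks in centred pairs (89.8%, interval 87.4 to 91.9), against 77.6% of the whole ZIPIC list. For Pita it was held by 644 of 727 (88.6%, interval 86.0 to 90.8), which is near the 86.7% of the whole Pita list. Both peaks of a pair passed in 582 centred pairs (80.1%, interval 77.0 to 82.9) and in 290 offset pairs (82.6%, interval 78.2 to 86.4). Neither passed in 12 centred pairs. The weakest Pita member, at chr2R:14071442-14071707, had a −log10 p of 4.00 beside a ZIPIC value of 8.99. The weakest ZIPIC member was paired with a Pita peak at chr2L:158941-159320 and had a value of 4.03 beside 10.9 for Pita.

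The share of peaks that belonged to a centred pair was higher among stronger ZIPIC peaks, and over Pita peaks it was nearly level except among the strongest. Over all strengths, 32.4% of the 2245 autosomal Pita peaks and 34.1% of the 2125 autosomal ZIPIC peaks were in a centred pair. Among autosomal ZIPIC peaks the share was 14.1% in the weakest decile (interval 9.71 to 19.5), 24.5% in decile 6 (interval 18.9 to 30.9), 63.2% in decile 9 (interval 56.3 to 69.7) and 72.3% in the strongest decile (interval 65.8 to 78.2). Among autosomal Pita peaks it was 27.1% in the weakest decile (interval 21.4 to 33.4) and between 26.3% and 38.4% in the next 8. It was 51.1% in the strongest decile (interval 44.4 to 57.8). Of the 100 strongest autosomal ZIPIC peaks, 71 were in a centred and the other 29 in an offset pair, so that all overlapped Pita. Of the 100 strongest autosomal Pita peaks, 53 were in a centred and 30 in an offset pair.

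**Figure D4:**
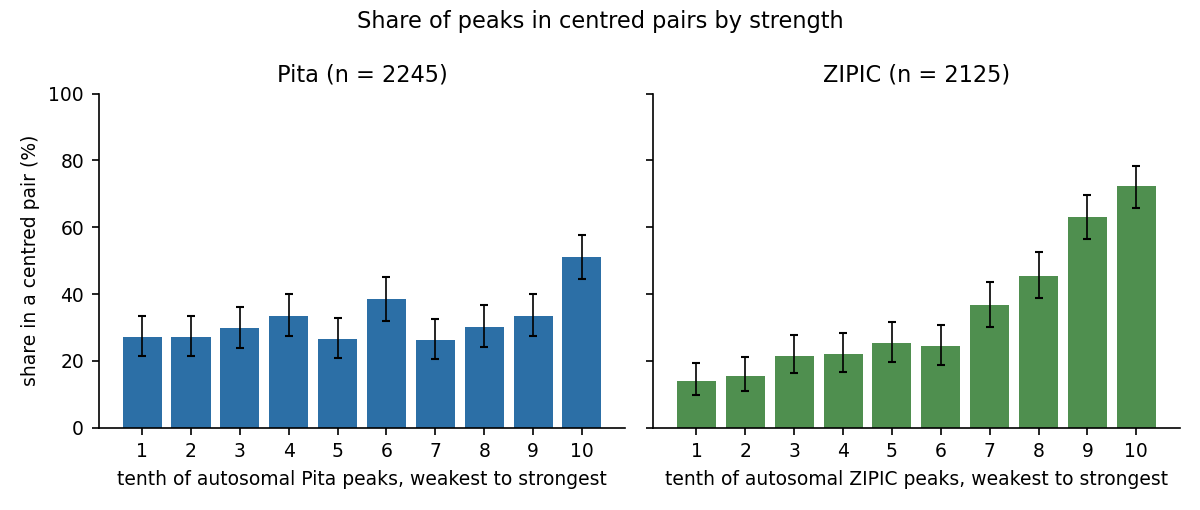
Share of autosomal Pita peaks (left, n = 2245) and ZIPIC peaks (right, n = 2125) that belong to a centred pair, in percent, by decile of strength within the protein's autosomal peaks. Bars are shares with exact 95% binomial intervals (counting error only); the ZIPIC share runs from 14.1% in the weakest decile to 72.3% in the strongest, whereas the Pita share is between 26.3% and 38.4% in 9 deciles and 51.1% in the strongest.

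Within the centred pairs the strengths of the proteins were only loosely related. Spearman's rho between the −log10 p values was 0.27 over 727 pairs and Pearson's r of their logarithms was 0.28 over the 725 pairs with no p listed as 0. By arm, rho was 0.29 on 2L, 0.37 on 2R, 0.21 on 3L and 0.19 on 3R, and in the offset pairs it was 0.20. Leaving out members in the strongest 5% of either list brought it to 0.16. These are descriptions across sites that share an input library and 1 library per protein. Both peaks were above the median of their list in 302 pairs, ZIPIC alone in 219, Pita alone in 94 and neither in 112. The strongest members for either protein mostly had partners above the median of the partner's list, but for Pita so did most weaker members. Among the 182 strongest ZIPIC members the Pita −log10 p had a median of 25.2 and quartiles of 14.7 and 39.3. Of these Pita peaks 145 (79.7%) were above their list's median, and 2 had a p of 1e-05 or more. Among the 182 strongest Pita members the ZIPIC median was 13.2, with quartiles of 8.18 and 24.0. Of these ZIPIC peaks 140 (76.9%) were above their list's median, and 10 had a p of 1e-05 or more. Over the whole lists, 86.7% of Pita peaks and 77.6% of ZIPIC peaks had a p under 1e-05. The Pita members were also put into 4 equal classes by strength, weakest to strongest. The ZIPIC medians were 8.85, 13.7, 20.2 and 13.2, highest beside Pita members of 15.3 to 37.8. The shares of ZIPIC members above their list's median were 58.8%, 75.8%, 75.1% and 76.9%, nearly level after the weakest class. When the ZIPIC members were put into 4 such classes, the shares of Pita members above their list's median were 45.1%, 44.5%, 48.6% and 79.7%. Here only the class of the strongest ZIPIC members stood apart.

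**Figure D5:**
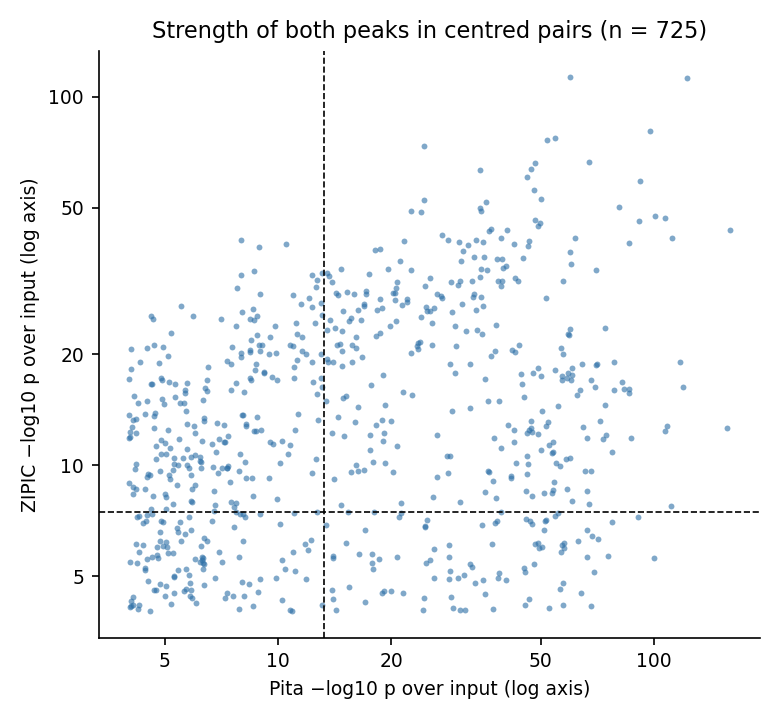
ZIPIC against Pita strength in centred pairs, as −log10 p over input on log axes, 1 point per pair; the 2 pairs with p listed as 0 are left out (n = 725). Dashed lines mark the medians of the whole lists, 13.3 for Pita and 7.49 for ZIPIC; 302 of the 727 pairs are above both, and pairs with a strong Pita peak range over the whole scale for ZIPIC.

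The 2 strongest sites of both lists were centred pairs. Each list held 2 peaks with a p listed as 0, and these were the same places, at chr3R:11096777-11100020 and at chr3L:7346979-7349617. The first was the widest member, with 3244 bp for Pita and 3247 bp for ZIPIC and middles 3.5 bp apart. In both lists a further, weaker interval overlapped its end. The second covered 2639 bp for Pita and 2594 bp for ZIPIC, with middles 18.5 bp apart. Next by the lower of its percentiles came a pair at chr2L:9757964-9759168, at a −log10 p of 123 for Pita, rank 10 of its list, and of 112 for ZIPIC, rank 7. It measured 1205 bp for Pita and 1215 bp for ZIPIC. Not all of the strongest peaks were in centred pairs. Of the 20 strongest autosomal Pita peaks, 14 were in a centred and 6 in an offset pair. Of the 20 strongest autosomal ZIPIC peaks, 13 were in a centred and 7 in an offset pair.

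The rest of the 10 pairs that stood highest in both lists were under 1000 bp. A pair at chr3L:19287429-19288236 had a −log10 p of 97.9 for Pita and 80.5 for ZIPIC. On 3R, the pair at chr3R:26021202-26021597 had 91.7 and 59.2, the pair at chr3R:8453395-8453800 had 101 and 47.4, the pair at chr3R:27045052-27045575 had 91.3 and 46.0, and the pair at chr3R:24948475-24949233 had 80.9 and 50.2, each time Pita first. On 2R, the pair at chr2R:3027029-3027427 had 107 for Pita and 47.0 for ZIPIC. The pair at chr2R:7953235-7954116 was the strongest of that arm for Pita, at 159 and rank 5 of the list, and had 43.5 for ZIPIC, rank 71. The strongest ZIPIC member of 2R lay elsewhere, at a Pita peak at chr2R:16558352-16559070, with a −log10 p of 63.4 for ZIPIC and 34.5 for Pita. On the other arms 1 pair was strongest in both lists. In all, 99 Pita members (13.6%) and 158 ZIPIC members (21.7%) were in the strongest decile of their list. In the offset pairs the shares were 12.5% for Pita and 17.9% for ZIPIC. Both peaks were there in 20 centred pairs (2.75%), 10 of them on 3R, and in 1.42% of the offset pairs. Whether the strongest peaks of the lists met more often than these shares imply was not tested.

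Other pairs were near the top of a list and near the foot of the other. The largest excess of Pita was at a peak at chr3R:5926306-5926616, with a −log10 p of 67.9 for Pita, percentile 95.3, and of 4.15 for ZIPIC, percentile 4.40. Here the weak ZIPIC interval was the wider, with 661 bp against 311 bp for Pita, and the middles lay 15 bp apart. The next 4 were at chr2L:17963158-17963601 and at chr2L:11948568-11948929, at chr2R:17495434-17495921 and at chr3L:15007533-15007735. Their Pita values ran from 45.5 to 64.0 and their ZIPIC values from 4.12 to 4.52. In each of these 4 the ZIPIC interval lay inside the Pita interval.

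The largest excess of ZIPIC was at chr3L:13996051-13996188, with a −log10 p of 4.05 for Pita, percentile 1.07, and of 20.8 for ZIPIC, percentile 87.1. The next were at chr3L:13495699-13495813 and at chr3L:19625909-19626448, and at chr2R:17511901-17512024 and at chr2R:3354224-3354355. Their Pita values lay between 4.00 and 4.64 and their ZIPIC values between 17.1 and 25.4. In all 5 the Pita interval lay inside the ZIPIC interval. Width alone did not order the strengths. Only the 2 pairs with p listed as 0 were wider for Pita than the member at chr2L:2855208-2856525, which was 1318 bp wide for Pita and 1306 bp for ZIPIC, with a −log10 p of 14.0 for Pita and 5.69 for ZIPIC. The member at place 5 by Pita width, at chr3L:16948406-16949548, had 49.1 for Pita and 6.16 for ZIPIC.

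Centred pairs were a similar share of the peaks of each of the 4 arms. There were 163 pairs on 2L, 190 on 2R, 166 on 3L and 208 on 3R. They made up 33.5% of the Pita peaks of 2L (interval 29.3 to 37.9), 33.7% of 2R (interval 29.8 to 37.8), 29.2% of 3L (interval 25.5 to 33.1) and 33.3% of 3R (interval 29.6 to 37.1). The intervals of the 4 arms overlap. Of the ZIPIC peaks, 37.1% on 2L (interval 32.6 to 41.8) and 34.6% on 2R were in a centred pair. On 3L it was 30.3% (interval 26.5 to 34.4) and on 3R 34.9%. The ZIPIC shares spread more widely than those of Pita, and their intervals overlap as well. Of the overlapping pairs, the centred share was 74.1% on 2L, 70.9% on 2R, 64.3% on 3L and 62.7% on 3R. Per megabase, measured to the last peak of either list, 2R held 8.99 pairs, 3R 7.47, 2L 7.20 and 3L 6.88. Pita members were strongest on 3R, with a median −log10 p of 20.5, and weakest on 2R, with 11.3, and the same held for all Pita peaks of these arms, at 16.3 and 10.3. For the ZIPIC members the median ran from 11.2 on 3L to 14.0 on 3R. All ZIPIC peaks were also lowest and highest on these arms, at 7.38 and 8.40.

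Most centred pairs lay more than 5 kb from the next centred pair, although many had some other peak nearby. From a pair to the next on its arm the distance had a median of 70.9 kb and quartiles of 21.5 and 179 kb, and the longest was 1339.5 kb, on 3L. Of 723 such distances 71 were 5 kb or less (9.82%). Between neighbouring autosomal Pita peaks, which are more numerous, 466 of 2241 distances were (20.8%). These shares were not adjusted for the number of peaks, and the part of number in their difference was not tested. Linking pairs within 5 kb of the next left 590 pairs single and put 137 into 66 groups, 61 of 2 pairs and 5 of 3. The grouped pairs had a median −log10 p of 12.0 for Pita and 12.3 for ZIPIC. The single pairs had 16.3 and 12.4. A further Pita peak, of any class, lay within 1 kb of 148 pairs, and a further ZIPIC peak within 1 kb of 174. Within 5 kb the numbers were 273 for Pita and 315 for ZIPIC, and 383 of 727 pairs (52.7%) had a further peak of at least one list there. Such neighbours were counted for centred pairs only, so whether these shares differ from those of other peaks is not known. The counts include entries that overlap a member within its own list. In bins of 1 Mb the fullest bin held 19 pairs on 2R, 17 on 2L and 16 on 3L and 3R each. On 2R 3 bins and on 3L 2 bins held none.

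The groups of 3 pairs varied in composition. On 3R, pairs at 24156547, 24161237 and 24165472 (the starts of the Pita peaks) had −log10 p of 17.5, 59.9 and 18.4 for Pita and of 33.2, 113 and 26.4 for ZIPIC. Its middle pair was rank 6 of the ZIPIC list, between far weaker neighbours on both sides. On 2R, pairs at 20825807, 20827876 and 20831220 had 25.7, 15.9 and 8.96 for Pita and 24.3, 29.2 and 29.1 for ZIPIC, so that ZIPIC varied little along the group while Pita did not stay level. On 2L, pairs at 5980932, 5981441 and 5986248 had 19.2, 39.5 and 13.5 for Pita and 10.1, 31.7 and 23.3 for ZIPIC. A second group on 2R, at 10103914, 10104512 and 10107265, had 5.02, 29.5 and 6.31 for Pita and 11.5, 17.8 and 5.42 for ZIPIC. In the groups of 3R and 2L and in this one, but not in the other group of 2R, the strongest Pita member stood beside the strongest ZIPIC member.

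The fifth group, on 3L, was not 3 separate places. Its Pita peaks at chr3L:4169974-4170080 and at chr3L:4169978-4170088 overlap almost wholly and were matched to the same ZIPIC peak, at chr3L:4169991-4170081. The other ZIPIC peak that served 2 members lay at chr2R:5019872-5020027, under Pita peaks at chr2R:5019840-5020064 and at chr2R:5019962-5020119. Both places have Pita intervals that overlap each other within the Pita list. These are the members behind the difference between 727 Pita peaks and 725 ZIPIC peaks.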

How the data were processed

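The authors precipitated Pita and ZIPIC from S2 chromatin, mapped the reads to dm3 by Bowtie, retained those that mapped once and unambiguously, and called peaks over input. Entries are named after PeakRanger, and the methods also name MACS. The submitters' processing notes add FastQC and SAMtools and list hg19 beside dm3, but the sequence names (2L, Uextra) are those of dm3. Versions of these tools: not given in the sources used here, as for the caller. Each of the deposited lists gives an interval, a p-value and a false discovery rate (a p-value adjusted for the number of peaks) per peak, used as they stand.

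Starts were read as 0-based and are printed from 1. A p of 0 was set at 1 above the highest finite −log10 p of its list. The code that pairs the peaks was run on simulated lists with planted pairs, to check its counting only. Each protein has 1 library, so no statistical test was run on the data. The members, and the rule for the named pairs, were chosen with earlier results of these data known. The rule names the 10 pairs with the highest lower percentile, the 5 largest percentile excesses either way, the strongest pair of each arm, the 5 widest, the 5 with the closest ends, the 3 largest groups (5 tied, and all are given), the pairs at the limit and the weakest. Genes, motifs and sequences were not analysed here, for want of a dm3 reference in this work. Alternatives changed the distance limit, the overlap, the threshold, the measure of strength and the arms included. The software was Python 3.11.15 with pandas 2.3.3, NumPy 2.4.6, SciPy 1.17.1 and, for figures, matplotlib 3.10.9.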

Additional observations from a re-analysis of the deposited data

Results flagged for a closer look

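Pairs that meet the same distance limit also occur outside the 4 arms, in sequences that the comparisons above do not use. There were 174 among 239 overlapping pairs on the X chromosome, 6 among 16 on chromosome 4, 2 among 5 on the heterochromatic sequences and 14 among 15 on U or Uextra, which hold unplaced sequence. No control list was used to set a level for these numbers, and they are given as counts.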

How the results depend on the processing

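Of 65 values recomputed under another choice, 60 stayed within the set margin. It was a factor of 1.5 for counts, and the 95% interval of the value for medians, the correlation and shares. Several choices could hardly pass it. Using each ZIPIC peak once left 725 of 727 pairs, as did leaving out pairs with p listed as 0. No arm held enough pairs for its removal to take their number past a factor of 1.5. The number of pairs ran from 519 without 3R to 896 with a limit of 200 bp, and the share with both p under 1e-05 from 79.0% to 81.1%. Keeping only pairs with both p under 1e-05 raised the median −log10 p to 19.0 for Pita and 15.0 for ZIPIC, since weak peaks were removed by construction. When the strongest 5% of either list was left out, rho came to 0.16, and linking pairs within 10 kb put 213 into groups. With ends allowed to differ by 25 bp, 257 pairs matched. No paired analysis was possible because each protein has 1 library. The libraries differ in depth and the lists give no reads per peak, so a missing peak can mean a weak one, and positions are middles of intervals, not summits.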

Other observations

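In both lists some intervals overlapped another interval of the same list, 32 neighbouring pairs for Pita and 12 for ZIPIC. In all 44 the joint span crossed a multiple of 10 kb in the coordinates. Taken singly, 82 of the 2768 Pita peaks and 69 of the 3047 ZIPIC peaks contained such a position. Among the centred pairs 16 had such a peak, 15 through Pita and 9 through ZIPIC, and both ZIPIC peaks that were matched to 2 Pita peaks are among them. The widest member, on 3R from 11096777 to 11100020, is another, as is the pair on 3R from 25959994 to 25960501, at a −log10 p of 107 for Pita and 12.4 for ZIPIC. On 2L, Pita peaks from 16679956 to 16680081 and from 16679968 to 16680540 each had a ZIPIC partner of nearly the same extent, so that both lists gave 2 entries at this place. The pairs named here besides the widest member were picked after their values were seen. Why overlapping entries fall at these positions was not tested. Leaving out every peak that overlaps another of its own list, a choice made after seeing the data, left 711 centred pairs, with a median −log10 p of 15.0 for Pita and 12.4 for ZIPIC and a rho of 0.26.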
